A study of Rattus norvegicus with 19 samples.

Results

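Cholesterol synthesis and sterol handling were described through 30 genes, listed by symbol from the pathway and not by their values in these samples. They are the enzymes from acetyl-CoA to cholesterol, the proteins that sense sterols, and the proteins that move, esterify, take up or export cholesterol. Each gene is represented by 1 probe set, the one with the highest average signal on the 19 arrays among those annotated with a single symbol. Of the 30 genes, 27 had such a probe set, out of 14217 genes measured in all, and 17 of the 27 are synthesis enzymes. Hmgcs1, Npc1 and Soat2 were not analysed here.

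Cells make cholesterol from acetyl-CoA through mevalonate, farnesyl diphosphate, squalene and lanosterol. The transcription factor SREBP-2 (gene Srebf2) turns these enzymes on: when membrane sterols are low, its escort SCAP carries it to the Golgi apparatus, where it is cut and released to the nucleus. When sterols are plentiful, the INSIG proteins hold SCAP in the endoplasmic reticulum. Insig1 is itself an SREBP target, so its transcript usually follows the enzymes, while Insig2 is not, and is known in liver for a transcript that insulin lowers. Cholesterol leaves hepatocytes through ABCA1 into lipoproteins and through ABCG5 with ABCG8 into bile.

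The study measured liver RNA on Affymetrix Rat230_2 arrays at postnatal day 4 (PND 4). Wistar Han dams (Crl:WI(Han)), bought timed-mated at 11 to 12 weeks of age, were gavaged daily with DE-71 from gestation day 6 through PND 4. DE-71 is a commercial flame retardant mixture of brominated diphenyl ethers. The groups were corn oil vehicle (5 arrays), 0.1 mg/kg per day (5), 15 mg/kg per day (4, replicates 2 to 5) and 50 mg/kg per day (5), and all of them received corn oil. Whether pups or dams gave the livers is not in the labels, nor is whether the arrays of a group are of separate animals or litters, so every p-value here reflects only how far these samples spread. The sex is labelled female, with no word on whose it is, while the Y-linked transcript Eif2s3y stood between 9.55 and 10.07 on the 19 arrays and Xist between 3.88 and 4.29. All values are log2 signals unless a fold is named, and 1 unit is a doubling of signal.

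Several arrays stood apart. A list of 7 hepatocyte transcripts, among them albumin and alpha-fetoprotein, averaged 14.55 to 14.64 on every array, so liver transcripts were high throughout. These signals lie near the top of the range (highest value 15.06), where differences are compressed, so they do not measure how much other tissue an array holds. Vehicle replicate 2 and 0.1 mg/kg replicate 2 differed from each other less than any other of the 171 pairs of arrays (SD of their log2 difference 0.128 over all probe sets, against 0.197 for the next pair and a median of 0.385). Both carried transcripts of other organs: the 6 kidney markers averaged 9.44 and 9.45 there, 6.87 on 50 mg/kg replicate 3 and at most 4.40 elsewhere. The 9 exocrine pancreas markers averaged 8.64 and 8.65 on the pair. They averaged 8.07 on 15 mg/kg replicate 5, 7.53 on vehicle replicate 4 and at most 5.63 elsewhere. The 7 measured skeletal muscle markers averaged 12.20 and 10.21 on vehicle replicates 1 and 5. They averaged 10.82 and 10.22 on 50 mg/kg replicates 2 and 3, and at most 8.74 elsewhere, with a median of 5.30 over the 19 arrays. The array labelled 0.1 mg/kg replicate 1 had Cyp1a1, a cytochrome P450 induced by planar aromatic compounds, at 14.06. The other 4 arrays of its group lay between 7.19 and 8.42 and the vehicle arrays between 7.10 and 8.36. The 15 mg/kg arrays lay at 13.16 or above and the 50 mg/kg arrays between 14.11 and 14.30. The array labelled 0.1 mg/kg replicate 1 and the near-identical pair, 3 arrays, are called the doubted arrays below. The submitters also numbered the arrays, and 4 of the 5 at 50 mg/kg were among the 7 early ones (numbers 1 to 8), against 1 of each other group.

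The proximal promoters of the members are shown as a description of their letters. Whether these letters bear on how the genes varied between arrays was not tested. SREBP-2 is known to act with the factor NF-Y, which binds CCAAT boxes, and with Sp1, which binds GC boxes. RefSeq promoters (assembly GRCr8, 250 bases before to 50 after the gene start) were found for 14 of the 17 measured enzymes and 8 of the other 10 members. The letters CCAAT on either strand were in 11 of the 14 enzyme promoters (78.6%) and in 6 of the 8 others (75%), against 37.5% of all 33469 promoters of the table. The GC box letters GGGCGG on either strand were in 12 of 14 (85.7%) and 5 of 8 (62.5%), against 33.1% of all promoters. TCACNCCAC, a core of the sterol regulatory element, was in none of the 22 and in 1.12% of all promoters, which says only that these letters are not in these windows. A stretch is given for 4 steps along the pathway and for Insig1, each read 5′ to 3′ on the strand of its gene, upstream of the annotated gene, with the box nearest the start in capitals (CCAAT, or ATTGG where the box lies on the other strand).
Idi1 (isopentenyl diphosphate isomerase), chr17:66547527-66547587, minus strand: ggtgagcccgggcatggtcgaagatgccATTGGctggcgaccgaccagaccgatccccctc
Fdps (farnesyl diphosphate synthase), chr2:176804869-176804929, minus strand: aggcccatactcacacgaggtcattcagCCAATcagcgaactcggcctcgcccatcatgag
Lss (lanosterol synthase), chr20:12118280-12118340, minus strand: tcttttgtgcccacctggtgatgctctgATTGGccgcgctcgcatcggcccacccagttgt
Msmo1 (methylsterol monooxygenase), chr16:29747017-29747077, plus strand: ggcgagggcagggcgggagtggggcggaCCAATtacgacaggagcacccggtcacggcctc
Insig1, chr4:8057930-8057990, minus strand: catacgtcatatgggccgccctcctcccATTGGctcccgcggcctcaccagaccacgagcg
The boxes begin 35, 85, 82, 68 and 193 bases before the table's gene start, in that order. A match is a description of the letters and not a measured binding site.

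The comparison of each dose with vehicle asked which of these genes differed from corn oil. At 50 mg/kg Insig2, which retains SCAP in the endoplasmic reticulum, rose 1.88-fold (95% interval 1.46 to 2.41), and it was the only one of the 27 measured members to pass limma's adjusted threshold of 0.05. The rest of the pathway did not pass: none of the 17 enzymes, none of the other 3 sensing genes, and none of the 6 transport, esterification, uptake or export genes. Of all 14217 genes, each by its representative probe set, 2.23% passed in this comparison and 1.79% passed as higher at 50 mg/kg, so 1 of 27 members is to be read against that share. At an unadjusted p under 0.05, 2 of 27 members passed (Insig2, higher, and Scap, lower), against 17.3% of all genes. Without the doubted arrays 1 of 27 passed, against 2.22% of all genes, and Insig2 was the member that passed (difference 0.87, adjusted p = 0.0167, limma).

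Insig2 was measured by 2 probe sets. On the representative one, the vehicle arrays read 9.22, 8.91, 9.08, 9.08 and 8.92 (replicates 1 to 5, mean 9.04). The 0.1 mg/kg arrays read 9.65, 8.89, 9.02, 9.04 and 9.56, and the 15 mg/kg arrays (replicates 2 to 5) 9.80, 9.08, 9.39 and 9.54. The 50 mg/kg arrays read 10.29, 9.85, 9.85, 10.25 and 9.52 (mean 9.95). Every 50 mg/kg array was above every vehicle array, and replicate 5, the one late array of the group, was the lowest of the 5. The 0.1 and 15 mg/kg arrays overlapped with vehicle, and 0.1 mg/kg replicate 1, one of the doubted arrays, was the highest of its group. The mean difference at 50 mg/kg was 0.91 (limma SE 0.171, adjusted p = 0.0128). At 15 mg/kg it was 0.41 (adjusted p = 0.479, limma) and at 0.1 mg/kg 0.19 (adjusted p = 1.00, limma), so neither passed.

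The second Insig2 probe set gave the same direction. Its vehicle arrays read 7.92, 8.37, 8.35, 8.28 and 8.22, and its 0.1 mg/kg arrays 8.67, 8.32, 8.07, 8.38 and 8.87. The 15 mg/kg arrays read 8.87, 8.38, 8.62 and 8.84, and the 50 mg/kg arrays 9.77, 9.19, 9.55, 9.72 and 9.03. On this probe set the 50 mg/kg arrays lay above all arrays of the 15 mg/kg and vehicle groups, and the 15 mg/kg arrays lay just above all vehicle arrays. It was 2.34-fold higher at 50 mg/kg than in vehicle (difference 1.23, limma SE 0.162, adjusted p = 0.00123), while the 15 mg/kg difference of 0.45 did not pass (adjusted p = 0.450, limma). Both probe sets share the same RNA and arrays, so they are not independent measurements of the animals.

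Whether Insig2 differed between the higher doses was tested directly. The difference between 50 and 15 mg/kg was 0.50 (adjusted p = 0.521, limma) on the representative probe set and 0.78 (adjusted p = 0.272, limma) on the second. No gene passed in this comparison (0% of 14217, and 8.35% at an unadjusted p under 0.05), and 0 of 27 members passed, 1 of them (Insig2) at an unadjusted p under 0.05.

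Position in the submitters' numbering was tied to dose: 4 of the 50 mg/kg arrays were early and 1 late, against 1 and 4 in vehicle. Position and dose therefore cannot be fully told apart in these arrays. At 50 mg/kg the late array was the lowest of its group on both Insig2 probe sets. The early vehicle array was the highest of its group on the representative probe set (9.22) and the lowest on the second (7.92). With early against late position fitted as a block, the Insig2 difference at 50 mg/kg was 0.65 on the representative probe set and no longer passed (adjusted p = 0.0841, limma). Within the early arrays 50 mg/kg exceeded vehicle by 0.83 (4 arrays against 1), and within the late arrays by 0.52 (1 against 4). The second probe set gave 1.64 and 0.73 in the same parts and still passed with the block (adjusted p = 0.0160, limma). The call on the representative probe set was also lost when vehicle replicates 2 and 4, both high in pancreas transcripts, were left out (0.88, adjusted p = 0.0927, limma). It was lost too without the arrays high in muscle transcripts, vehicle replicates 1 and 5 and 50 mg/kg replicates 2 and 3 (0.99, adjusted p = 0.227, limma). In that setting no probe set passed. Among marker lists of other cells, the 3 measured neutrophil markers averaged 11.30 to 12.05 at 50 mg/kg and 11.76 to 12.63 in vehicle, and 1 of the 3 fell. The 6 stellate cell markers averaged 8.34 to 10.35 and 8.50 to 11.28, and the 9 pancreas markers 5.14 to 5.31 and 5.19 to 8.64, in the same order, with none passing. Their part in the Insig2 difference was not tested. In bulk liver, fewer cells of a type and less RNA per cell cannot be told apart.

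**Figure D1:**
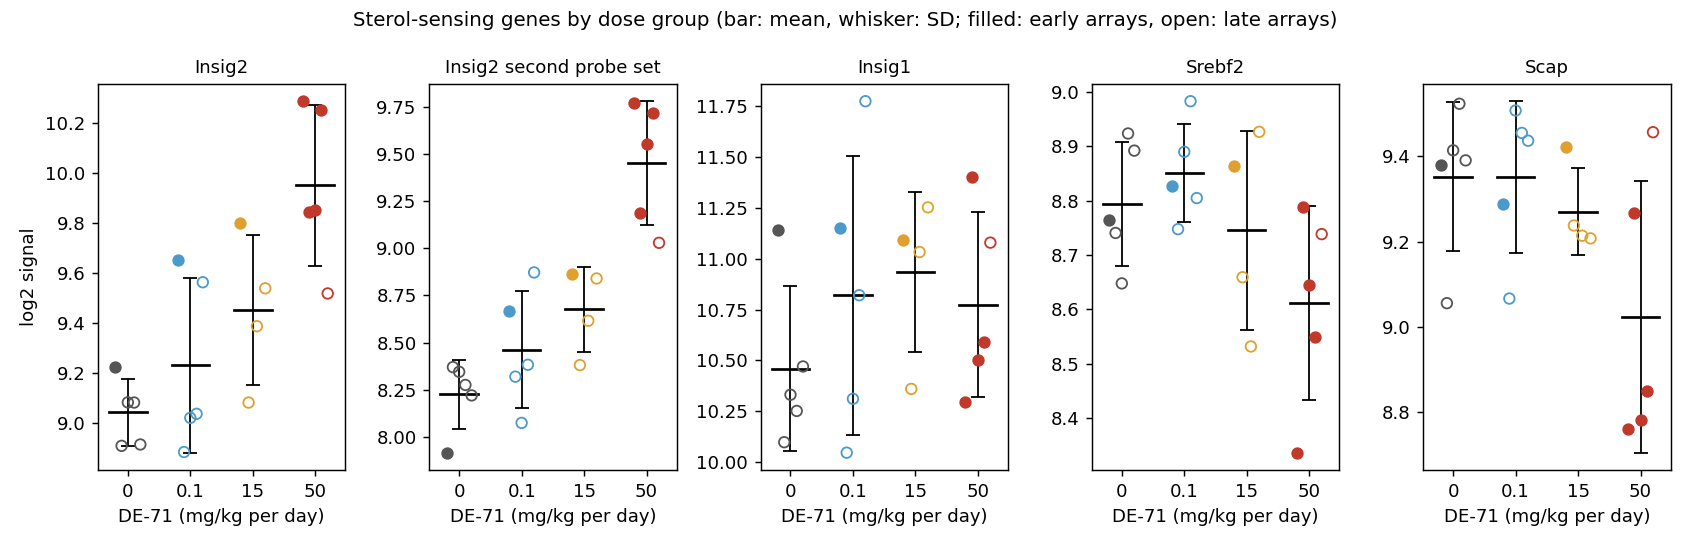
Log2 signal of the sterol-sensing genes on each array (vertical axes, a separate scale per panel) by DE-71 dose in mg/kg per day (horizontal axes, 0 is vehicle). Points are arrays, filled for early and open for late ones, bars are group means and whiskers SD. Both Insig2 probe sets stand above all vehicle points at 50 mg/kg, while the groups overlap for Insig1, Srebf2 and Scap.

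The other sensing genes did not pass at any dose. Scap, the sterol sensor that escorts SREBP-2, read 9.38, 9.06, 9.41, 9.52 and 9.39 in vehicle and 8.76, 9.27, 8.78, 8.85 and 9.46 at 50 mg/kg. The 3 lowest of these 10 arrays were 50 mg/kg replicates 1, 3 and 4, all early arrays, but replicates 2 and 5 lay inside the vehicle range. The difference was -0.33 (limma SE 0.13, adjusted p = 0.23), with a 95% interval from a fold of 0.658 to one of 0.962. Srebf2, which encodes SREBP-2, read 8.76, 8.74, 8.65, 8.92 and 8.89 in vehicle and 8.34, 8.79, 8.64, 8.55 and 8.74 at 50 mg/kg. Its groups overlapped as well, and the difference was -0.18 (limma SE 0.0924, adjusted p = 0.358). At 15 mg/kg Scap read 9.42, 9.24, 9.21 and 9.21 and Srebf2 8.86, 8.66, 8.53 and 8.93. The 50 mg/kg groups overlapped with these too, with differences of -0.25 for Scap and -0.13 for Srebf2 (adjusted p = 0.711 and 0.818, limma).

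Insig1, the INSIG gene that SREBP itself induces, overlapped between all doses. It read 11.14, 10.10, 10.33, 10.25 and 10.47 in vehicle and 11.15, 10.05, 10.31, 10.82 and 11.77 at 0.1 mg/kg. It read 11.09, 10.36, 11.03 and 11.25 at 15 mg/kg and 10.29, 11.40, 10.50, 10.59 and 11.08 at 50 mg/kg. Its differences from vehicle were 0.36, 0.47 and 0.31 in order of dose (adjusted p = 1.00, 0.609 and 0.64, limma). Within each array, Insig2 minus Insig1 was 0.59 higher at 50 mg/kg than in vehicle. An exact two-sided permutation test over the 252 splits of the 10 arrays gave p = 0.143 (smallest possible 0.00794), so the change of Insig2 was not shown to differ from that of Insig1. This contrast was chosen after the values had been seen. The splits also took no account of early or late position or of vehicle replicate 2, a doubted array.

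In the mevalonate steps, from acetyl-CoA to farnesyl diphosphate, 0 of 6 measured enzymes passed at any dose, and their median difference at 50 mg/kg was 0.028, which became -0.048 without vehicle replicate 2 and ran from -0.055 (without 50 mg/kg replicate 2) to 0.13 (without replicate 1) with 1 array left out. Acat2, the cytosolic thiolase of the first step, read 8.64, 8.60, 8.47, 8.36 and 8.30 in vehicle and 8.76, 8.84, 8.36 and 9.54 at 15 mg/kg. The 15 mg/kg mean was raised by replicate 5, an array with pancreas markers at 8.07, and the difference was 0.40 (adjusted p = 0.504, limma). Without that array it was 0.18. Mvk, Pmvk and Mvd, which phosphorylate and decarboxylate mevalonate, differed from vehicle by 0.07, -0.01 and 0.04 at 50 mg/kg. Idi1 and Fdps, which isomerise and join the isoprene units, differed by 0.01 and -0.03. Without vehicle replicate 2, one of the doubted arrays, Mvk, Mvd and Idi1 were below vehicle. Their signs also changed without 50 mg/kg replicate 5, and those of Pmvk and Fdps without 50 mg/kg replicate 4, so none of these signs is firm. For these 5 enzymes the groups overlapped with vehicle at each dose. Idi1 was among the 5 members with the smallest p between the higher doses, reading 10.49, 10.63, 10.48 and 10.69 at 15 mg/kg and 9.87, 10.79, 10.40, 10.05 and 10.52 at 50 mg/kg. The 50 mg/kg arrays ran on both sides of those at 15 mg/kg, and the difference was -0.24 (limma SE 0.184, adjusted p = 0.823).

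In the steps from squalene to cholesterol, 0 of 11 enzymes passed at any dose. Their median difference at 50 mg/kg was 0.16, and 0.044 to 0.22 with 1 array left out. It was 0.044 without vehicle replicate 2, and 0.055 and 0.078 without 50 mg/kg replicates 2 and 5. Sc5d, a sterol desaturase, came nearest at 15 mg/kg. It read 10.99, 10.50, 10.90, 10.70 and 10.74 in vehicle and 11.01, 11.15, 11.21 and 10.87 at 15 mg/kg. The groups overlapped only because 15 mg/kg replicate 5 lay below vehicle replicates 1 and 3, and the difference was 0.30 (limma SE 0.13, unadjusted p = 0.0361, adjusted p = 0.475). At 50 mg/kg Sc5d read 10.83, 11.29, 10.87, 10.71 and 11.16, a difference of 0.21 (adjusted p = 0.43, limma). Msmo1, which removes methyl groups from lanosterol products, read 11.54, 10.72, 11.10, 11.34 and 11.14 in vehicle and 11.71, 11.64, 11.52 and 11.47 at 15 mg/kg. All but the highest vehicle array lay below the 15 mg/kg arrays, and the difference of 0.42 did not pass (adjusted p = 0.562, limma). Msmo1 at 50 mg/kg ran from 10.91 to 12.13, wider than any other group.

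The remaining ring enzymes did not pass either. Nsdhl, a sterol dehydrogenase, read 11.46, 11.06, 11.55, 11.66 and 11.39 in vehicle and 11.51, 11.91, 11.52, 11.49 and 11.82 at 50 mg/kg, overlapping groups with a difference of 0.23 (adjusted p = 0.424, limma). Dhcr7, the last reductase of the pathway, read 9.60, 9.19, 9.63, 9.44 and 9.23 in vehicle and 9.77, 9.73, 9.55 and 9.55 at 15 mg/kg. Its 15 mg/kg arrays lay in or above the upper part of the vehicle range, and the difference was 0.23 (limma SE 0.15, adjusted p = 0.603). Sqle (squalene epoxidase) and Lss differed from vehicle at 50 mg/kg by 0.07 and 0.22, but Sqle by -0.049 without vehicle replicate 2. Cyp51, the lanosterol demethylase, read 11.27, 11.31, 11.03 and 11.26 at 15 mg/kg and 10.24, 11.50, 10.90, 10.59 and 11.16 at 50 mg/kg. It had the second smallest p of the members between these doses (difference -0.34, limma SE 0.188, unadjusted p = 0.0891, adjusted p = 0.711), and the 50 mg/kg arrays ran both above and below all those at 15 mg/kg. Hsd17b7 and Ebp, a ketoreductase and an isomerase of the sterol ring, differed from vehicle at 50 mg/kg by 0.07 and -0.10. Without vehicle replicate 2 the Hsd17b7 difference was -0.12.

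Fdft1 (squalene synthase) and Tm7sf2 (a sterol reductase) were among the 5 members with the smallest p at 0.1 mg/kg, where no member passed. Fdft1 read 10.47, 9.92, 10.21, 10.67 and 10.61 in vehicle and 10.75, 9.90, 10.62, 10.77 and 10.97 at 0.1 mg/kg, a difference of 0.22 (limma SE 0.198, adjusted p = 1.00). Tm7sf2 read 9.96, 9.44, 9.57, 9.99 and 10.07 in vehicle and 10.15, 9.48, 9.89, 10.31 and 9.89 at 0.1 mg/kg, a difference of 0.14 (limma SE 0.19, adjusted p = 1.00). In both genes replicate 2, the near-identical array, was the lowest of its group at both doses, and the groups overlapped. Their differences from vehicle at 50 mg/kg were 0.16 and -0.05, and that of Tm7sf2 was 0.072 without 50 mg/kg replicate 4.

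The 17 enzymes were then described as a group, beside all 14217 genes. At 0.1 mg/kg 12 of 17 had a mean above vehicle (median difference 0.089), against 55.0% of all genes (median 0.012). At 15 mg/kg 16 of 17 were above vehicle (median 0.19), all but Ebp, against 49.5% of all genes (median -0.003). At 50 mg/kg 12 of 17 were above vehicle (median 0.070), against 51.5% of all genes (median 0.0058). The direction at 50 mg/kg rested on single arrays. With any 1 array left out, the medians at 0.1 and 15 mg/kg stayed above 0 but changed in size. Without vehicle replicate 2, the near-identical array on which 16 of 17 enzymes were the lowest of the group, the 50 mg/kg count was 7 of 17 and the median -0.020. It was also negative without 50 mg/kg replicate 2 (8 of 17, median -0.047) or replicate 5 (7 of 17, -0.012), and it was 0.18 and 0.14 without replicates 1 and 4 and to 0.13 and 0.12 without vehicle replicates 1 and 4. The 15 mg/kg count was 14 of 17 without vehicle replicate 2, with a median of 0.10, and 14 to 16 of 17 with any 1 array left out. The 0.1 mg/kg count ran from 9 of 17 without vehicle replicate 2 (median 0.0074) to 16 of 17 without its near-identical partner (0.17). It was 12 of 17 without all 3 doubted arrays (median 0.041). Leaving out 0.1 mg/kg replicate 1, 4 or 5 or vehicle replicate 5 lowered the 0.1 mg/kg median to 0.017, 0.017, 0.054 and 0.055. The enzymes share their arrays and vary together, and the 3 comparisons share the vehicle arrays, so these counts are descriptions without a test. Without a call, the 95% intervals still bound the size of single changes: at 50 mg/kg they reached from 1.44-fold lower (Cyp51) to 1.76-fold higher (Msmo1), and at 15 mg/kg from 1.42-fold lower (Ebp) to 1.89-fold higher (Msmo1).

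At 15 mg/kg 0 of 27 members passed, as did 0% of all genes, and 2 of 27 (Sc5d and Insig2) had an unadjusted p under 0.05, against 9.92% of all genes. At 0.1 mg/kg 0 of 27 passed, again with 0% of all genes, and 0 of 27 had an unadjusted p under 0.05, against 1.98%. The 5 members with the smallest p at 0.1 mg/kg were Abcg8 (difference 0.29), Insig1 (0.36), Fdft1 (0.22), Insig2 (0.19) and Tm7sf2 (0.14), each with adjusted p = 1.00 (limma). A test of any difference among the 4 groups (limma's F test) passed for 0 of 27 members and for 0.556% of all genes. At an unadjusted p under 0.05 it passed for 1 of 27, Insig2 (adjusted p = 0.0697), against 11.9% of all genes. Insig2 was also the only member whose arrays did not overlap between 50 mg/kg and vehicle, 1 of 27 against 5.83% of all genes, and no member was free of overlap at 15 mg/kg, against 3.36% of all genes. Without the doubted arrays the adjusted counts were again 0 of 27 at 0.1 and 15 mg/kg and in the F test. At an unadjusted p under 0.05 they were then 1 (Abcg8, against 3.88% of genes), 1 (Acat2, 9.82%), 2 (Scap and Insig2, 16.7%) and 4 in the F test (Acat2, Scap, Insig2 and Abcg8, 14.8%), in order of dose. Insig2 at 50 mg/kg (7.6% of genes) and Abcg8 at 0.1 mg/kg (5.79%) were then the only members whose groups did not overlap with vehicle. Abcg8 has the lowest mean signal of the 27 members (4.63), as described below.

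**Figure D2:**
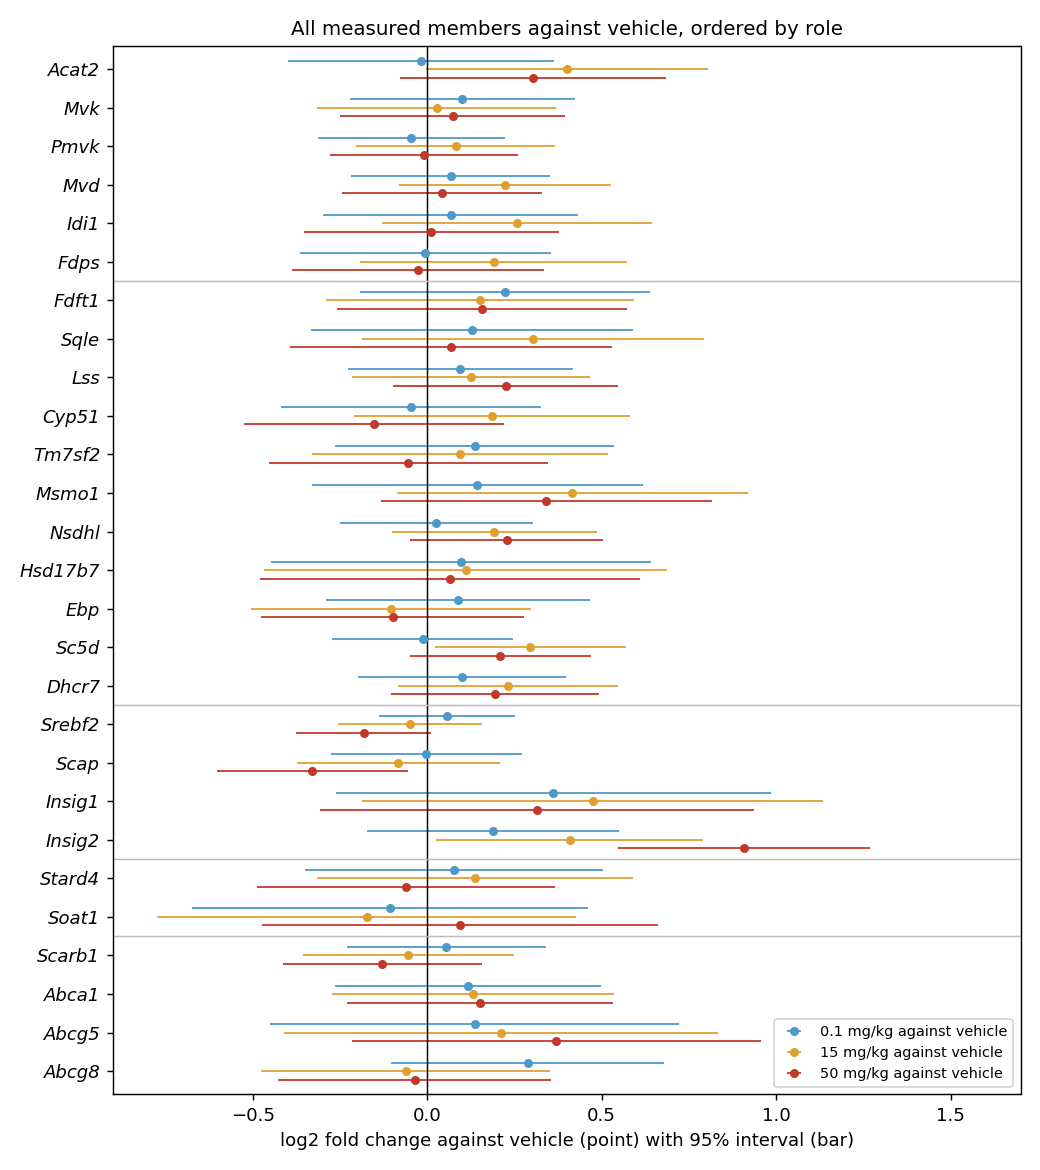
Log2 fold change against vehicle (horizontal axis) for the 27 measured members (vertical axis, ordered by role and parted by grey lines), at 0.1, 15 and 50 mg/kg. Points are limma estimates and bars their 95% intervals, not adjusted for the number of genes. The 50 mg/kg interval of Insig2 lies farthest from 0, and 16 of 17 enzymes lie to the right of 0 at 15 mg/kg (14 of 17 without vehicle replicate 2).

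The transport and export genes did not pass at any dose. Stard4, a carrier of free cholesterol in the cytosol, differed from vehicle by 0.08, 0.14 and -0.06 in order of dose. Without vehicle replicate 2 the first was -0.014, and without 50 mg/kg replicate 1 the last was 0.025. Soat1, which esterifies cholesterol in many cell types, read 6.64, 7.88, 6.95, 7.07 and 7.03 in vehicle and 6.60, 7.94, 6.55, 6.79 and 7.15 at 0.1 mg/kg. The near-identical arrays, replicate 2 of both groups, were the highest of all 19 for this gene, and they are also the arrays with kidney and pancreas transcripts. The difference of Soat1 at 50 mg/kg was 0.09, and -0.019 without 50 mg/kg replicate 1. Scarb1, the hepatic receptor for high-density lipoprotein, differed by -0.13 at 50 mg/kg, and Abca1, which loads cholesterol onto apolipoprotein A-I, by 0.15.

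The biliary exporter genes Abcg5 and Abcg8 did not pass. Their signals were low, averaging 5.84 and 4.63 over the 19 arrays, below the array medians of 6.06 to 6.16. The adrenal cortex markers, from another organ, averaged 4.09 to 4.48, so Abcg8 lay near the level of transcripts foreign to liver. Abcg5 read 5.68, 5.27, 6.46, 5.56 and 5.36 in vehicle and 5.89, 5.94, 6.19, 5.76 and 6.40 at 50 mg/kg. All 50 mg/kg arrays lay above all vehicle arrays but one, vehicle replicate 3, and the difference of 0.37 did not pass (adjusted p = 0.55, limma). Abcg8 read 4.54, 4.31, 4.88, 4.66 and 4.51 in vehicle and 4.58, 4.17, 5.37, 5.06 and 5.16 at 0.1 mg/kg. At 0.1 mg/kg replicates 3, 4 and 5 were above every vehicle array, while replicates 1 and 2, both doubted arrays, were not. The difference of 0.29 (limma SE 0.186, adjusted p = 1.00) became 0.55 without the doubted arrays and did not pass there either (adjusted p = 0.97, limma).

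Within the vehicle, 0.1 and 50 mg/kg groups most enzymes moved together between arrays, by more than their median differed from vehicle at any dose. At 15 mg/kg the enzymes were split in direction on some arrays, as given below. At 50 mg/kg, all 17 enzymes lay above their group mean on replicates 2 and 5 and all 17 below it on replicates 1 and 4. Taking each enzyme's deviation from its median over 19 arrays, the median deviation of the 17 enzymes was -0.40, 0.39, -0.017, -0.30 and 0.30 on 50 mg/kg replicates 1 to 5. The group thus spread over 0.79, while the enzymes' median difference from vehicle at this dose was 0.070, or -0.020 without vehicle replicate 2. Sqle shows it for a single gene: it read 9.28, 10.39, 9.81, 9.56 and 10.17 at 50 mg/kg and 10.01, 9.30, 9.87, 10.15 and 9.53 in vehicle. Fdps read 12.27, 13.03, 12.80, 12.60 and 13.04 at 50 mg/kg and 12.95, 12.32, 12.79, 13.09 and 12.73 in vehicle. In both genes replicates 1 and 4 were the lowest and replicates 2 and 5 the highest of the 50 mg/kg group, and they spanned most of the vehicle range.

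The same arrays can be read for the sensing genes. Insig2 was highest on 50 mg/kg replicates 1 and 4 (10.29 and 10.25), the arrays on which the enzymes were lowest, and lowest on replicate 5 (9.52), where they were high. The other groups did not share this order. On replicate 2 of vehicle and of 0.1 mg/kg, Insig2 was the lowest of its group (8.91 and 8.89), as the enzymes were (-0.45 on both). On 0.1 mg/kg replicate 1 both were the highest of the group (9.65 and 0.19). At 15 mg/kg Insig2 was highest on replicate 2 (9.80) and lowest on replicate 3 (9.08), with the enzymes at 0.14 on both. At 50 mg/kg Insig1 was highest on replicates 2 and 5 (11.40 and 11.08), as the enzymes were. With 5 arrays in this group no correlation is given. The low-enzyme arrays 1 and 4 had kidney markers at 4.39 and 4.40 and pancreas markers at 5.31 and 5.14, near the medians of all arrays (4.25 and 5.32). Muscle markers averaged 5.30 and 4.67 on them, and 10.82 and 4.50 on the high-enzyme replicates 2 and 5. Neutrophil markers averaged 11.99 and 12.05 on replicates 1 and 4 and 11.30 and 11.43 on replicates 2 and 5. Their part in this pattern was not tested.

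In the other groups, replicate 2 of vehicle and of 0.1 mg/kg stood lowest. Vehicle replicates 1 to 5 had median enzyme deviations of 0.078, -0.45, -0.028, 0.094 and -0.13, and the 0.1 mg/kg replicates 0.19, -0.45, -0.092, 0.12 and 0. Replicate 2 was the lowest of its group for 16 of 17 enzymes in both groups, and both were among the 3 lowest of 19 for 14 of 17. These are the near-identical arrays with kidney markers at 9.44 and 9.45 and pancreas markers at 8.64 and 8.65, so the same low profile is counted once in each group. Between them the members differed by at most 0.138, with a median of 0.0511. The median deviations of the 15 mg/kg arrays were closest together, at 0.14, 0.14, 0 and 0, but single enzymes went opposite ways. Replicate 5 there was the lowest of the group for 9 enzymes and the highest for 5.

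The spread within groups was larger for these genes than for most. The median residual SD, the spread of single arrays about their group mean, was 0.291 for the 17 enzymes and 0.309 for the 10 other members, against 0.171 for all genes. Without the doubted arrays it was 0.258, 0.243 and 0.154. The 5 adrenal cortex markers measured, from an organ that also makes much cholesterol, averaged 4.09 to 4.48 on all 19 arrays.

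**Figure D3:**
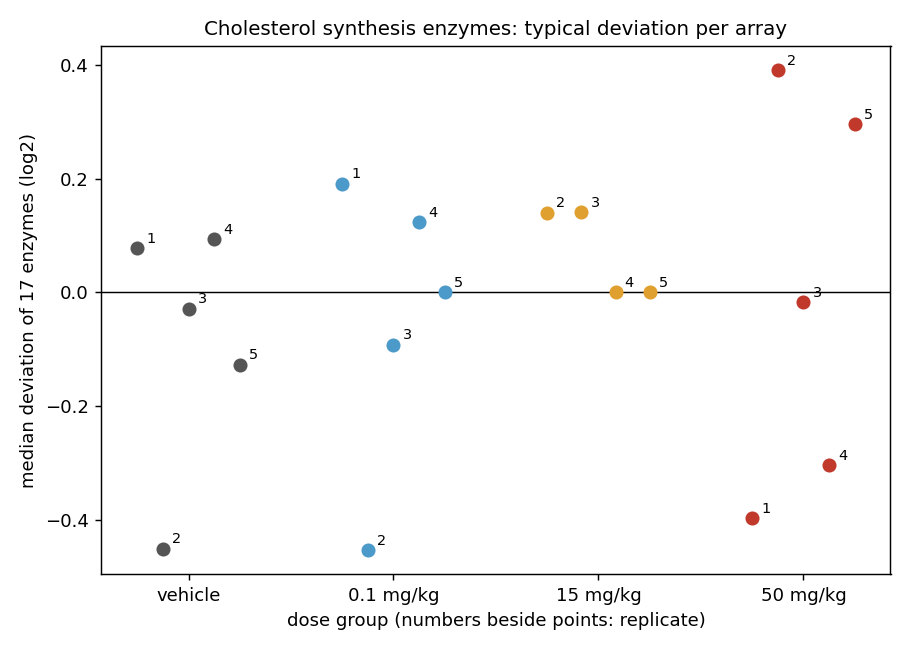
Median deviation of the 17 synthesis enzymes from their own medians over 19 arrays (vertical axis, log2) for each array, by dose group (horizontal axis), with replicate numbers beside the points. The 50 mg/kg arrays run from -0.40 to 0.39, and replicate 2 of vehicle and of 0.1 mg/kg lie together at -0.45.

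**Figure D4:**
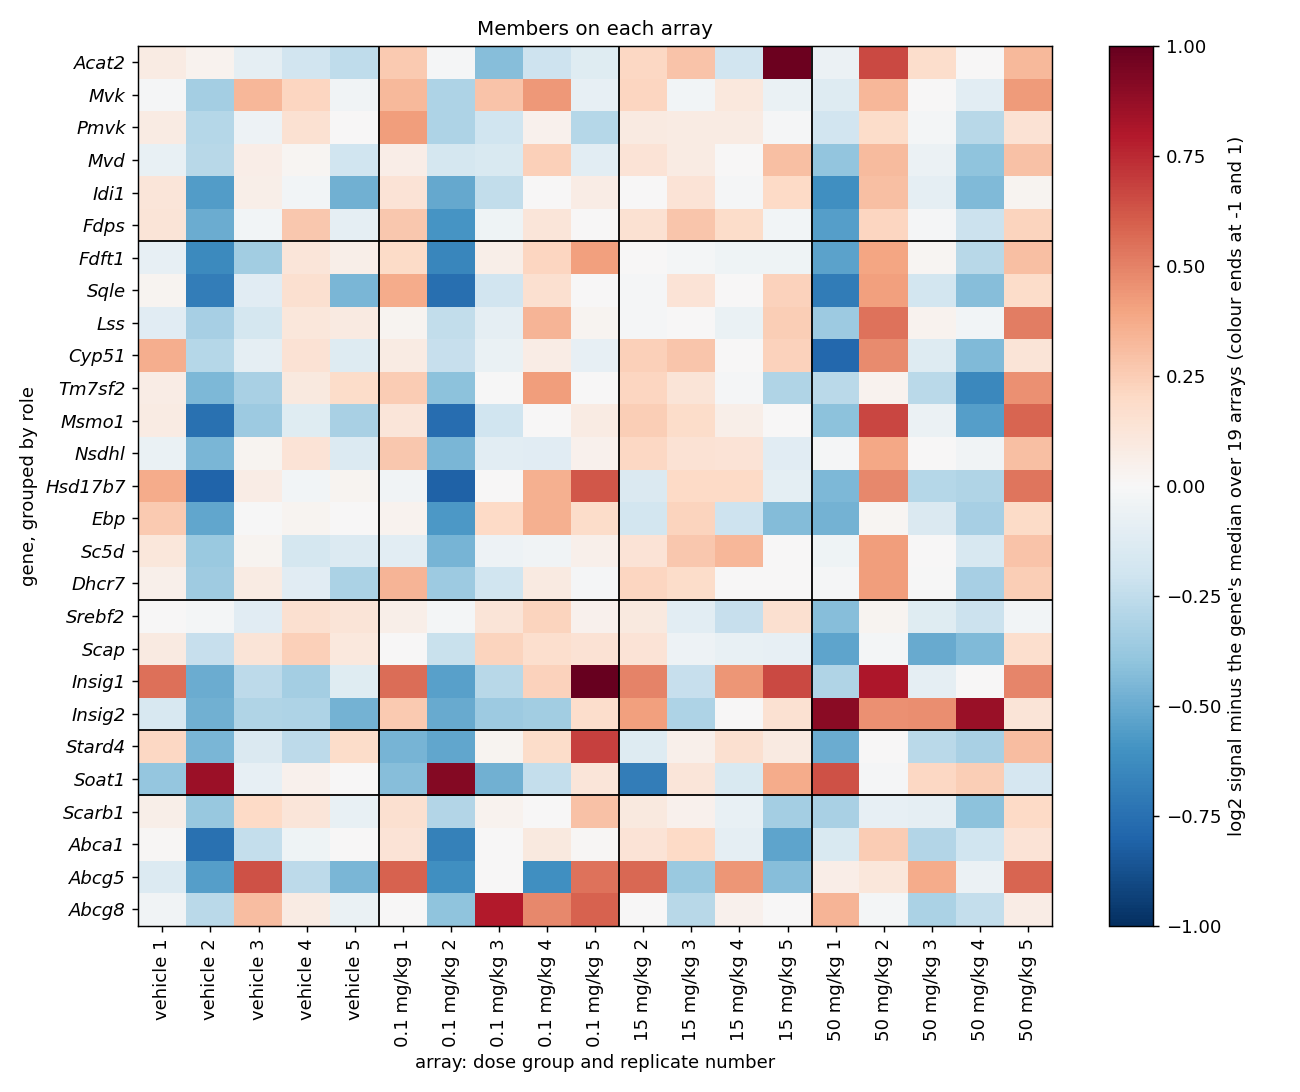
Log2 signal of each measured member (rows, grouped by role) minus its median over 19 arrays, on each array (columns, grouped by dose), with blue below and red above the median and colours ending at -1 and 1. Enzyme rows often, but not always, change colour together from column to column, as between 50 mg/kg replicates 1 and 2, while Insig2 is red in all 50 mg/kg columns.

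Genes next to the pathway were read from lists chosen for their function. For 16 measured sensing partners and oxysterol receptor genes (of 17 listed), the median difference at 50 mg/kg was 0.089. It ran from 0.026 (without 50 mg/kg replicate 2) to 0.13 with 1 array left out, and was 0.037 without vehicle replicate 2. At this dose 2 of these genes rose and 0 fell. They were Pgrmc1, a membrane protein that binds INSIG1 and heme (difference 0.44, limma SE 0.0842, adjusted p = 0.0129), and Rnf139, a ubiquitin ligase of the endoplasmic reticulum (0.44, SE 0.101, adjusted p = 0.0367). Of 16 other sterol carriers and lipoprotein genes, 1 rose and 1 fell, with a median of -0.048. This median ran from -0.073 to 0.0082 (without vehicle replicate 1) with 1 array left out. Osbpl2, an oxysterol-binding protein relative, rose by 0.46 (adjusted p = 0.0105, limma), and Npc2, the lysosomal cholesterol-binding protein, fell by 0.32 (adjusted p = 0.0367, limma). Of 8 measured genes of acetyl-CoA supply and the isoprenoid branch (of 10 listed), 0 passed, with a median of 0.088 (0.034 to 0.16 with 1 array left out). At 0.1 and 15 mg/kg 0 members of these 3 lists passed. The share of all genes at 50 mg/kg is the 2.23% given above.

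These 4 calls did not all hold in other settings. With that same early and late block none passed (adjusted p = 0.104 for Pgrmc1, 0.173 for Rnf139, 0.0791 for Osbpl2 and 0.198 for Npc2, limma). Without the doubted arrays Pgrmc1 (0.0205) and Osbpl2 (0.0135) passed, and Rnf139 (0.0529) and Npc2 (0.0685) did not.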

How the data were processed

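The authors deposited log2 signals, 1 per probe set and array, and the submitters' processing notes name RMA (background correction, quantile normalization and probe summary), with a version not given in the sources used here. Its folds are compressed. Of 31099 probe sets, 57 controls were left out, 20826 of the rest had 1 gene symbol, 436 several and 9780 none, and 20758 symbols were updated by gene ID through RefSeq (GRCr8). One mean per dose group was fitted over 19 arrays with limma 3.58.1 in R 4.3.3 (two-sided moderated tests, 15 residual and 2.78 prior degrees of freedom, Benjamini-Hochberg over 31042 probe sets, threshold 0.05). The fit was tested on simulated data. The submitters' own test, R/maanova, was not used. Array medians lay between 6.06 and 6.16, and the number of arrays limits the precision.

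The members, lists and arrays left out were chosen with earlier results of these data known. The rule for naming genes accounted for all 30 members by role, with full values for those that passed and for the 5 members of smallest unadjusted p if under 5 passed. Abcg5, Soat1, Sqle and Fdps were given values after these had been seen. Figures used matplotlib 3.10.9.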

Additional observations from a re-analysis of the deposited data

Results flagged for a closer look

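Among 108 sets of a member's values in 1 dose group, 5 held an array far from the others by Dixon's criterion, and chance gives about 1 in 20. At 15 mg/kg, Pmvk on replicate 5 was 8.19 (others 8.29 to 8.30), and Cyp51 on replicate 4 was 11.03 (others 11.26 to 11.31). In the same group Scap on replicate 2 was 9.42 (others 9.21 to 9.24), and Abcg8 on replicate 3 was 4.30 (others 4.58 to 4.62). At 0.1 mg/kg, Abca1 on replicate 2, one of the near-identical arrays, was 10.21 (others 10.89 to 11.02).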

How the results depend on the processing

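The fits were repeated under 33 settings, 19 of which leave out 1 array. The count of members that passed was 0 at 0.1 mg/kg, at 15 mg/kg and for 50 against 15 mg/kg in all 33. At 50 mg/kg it was 1 in 29 and 0 in 4: with early or late position as a block, that block without the doubted arrays (Insig2 0.65, adjusted p = 0.0791, limma), without vehicle replicates 2 and 4 (88 probe sets passed in all), and without the arrays high in muscle transcripts (0 in all). The second Insig2 probe set passed in 31 of 32 and was lost without the muscle arrays (1.18, adjusted p = 0.119, limma). For any difference among the groups the count was 1 with a filter at the median level, with array weights and with a gene's probe sets averaged. Leaving out 1 array at a time gave a count of 1 throughout at 50 mg/kg, and 0 to 1 among the groups (1 without 0.1 mg/kg replicate 1 and without 50 mg/kg replicate 5). No member among the 5 smallest p-values of a comparison changed sign in these settings. Of all 27 members, 15, 7, 12 and 12 changed sign when 1 array was left out (0.1, 15 and 50 mg/kg against vehicle, and 50 against 15), all with differences of at most 0.173. The replicate block left Insig2 at 0.91 (adjusted p = 0.0130, limma) and 511 probe sets called. Whether the numbers pair the arrays cannot be told from these values. Of 27 same-number pairs, 11 correlated above 0.1 (r from -0.53 to 0.89), and 6 of 19 arrays correlated best with their own number. The near-identical arrays, both replicate 2, are among these pairs. Fits without doubted arrays, list medians with arrays left out and the second probe set were added after the data had been seen.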
